A study of Homo sapiens with 2 samples.

Results

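The cadherins described here are 10 genes chosen by name: CDH1, CDH2, CDH3, CDH4, CDH5, CDH6, CDH8, CDH10, CDH11 and CDH13. They were followed through every probe set of the array table that is annotated to a single one of them. That gave 21 probe sets for 8 genes, out of 54675 probe sets and 19775 genes named on the arrays. CDH4 and CDH13 had no probe set of this kind and are not analysed here. The material was total RNA of SK-N-MC, a human tumour line that the submitters call a neuroepithelioma and that is now placed in the Ewing tumour family. One array carried RNA of cells stably transfected with the empty expression vector pCMV-Script (vector control 1, not called a clone in its label). The other carried RNA of cells with the human melanotransferrin cDNA (MTf) in that vector, under its CMV promoter (hyperexpression clone 4). Each group is thus 1 transfected line read on 1 array, and whether the control line was a clone was not given. The values therefore carry no SD from replicates, and the lines could not be compared by a test. A difference between the lines that is unrelated to the insert cannot be told apart from an effect of the insert.

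Cadherins are transmembrane proteins that hold neighbouring cells together in the presence of calcium, mostly by binding the same cadherin on the next cell. The cytoplasmic tail binds p120 catenin and beta-catenin, and alpha-catenin links this complex to actin. Type I cadherins (CDH1, CDH2, CDH3 and CDH4, or E-, N-, P- and R-cadherin) are known from epithelia and neural tissue. Type II cadherins (CDH5, CDH6, CDH8, CDH10 and CDH11) are known from endothelium, mesenchyme and the developing brain. CDH13, or T-cadherin, has no such tail and is held in the membrane by a GPI anchor, as melanotransferrin itself is.

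A signal is the linear intensity of 1 probe set as deposited, and "as scaled" below refers to these values. Their trimmed mean (2% dropped at each end) was 1000.12 on both arrays, though how they were scaled was not given. Whether a transcript was seen was judged from 189 probe sets of hair keratin-associated proteins and of smell and bitter taste receptors, which tumour cells of this kind should not make. Their median was 67.4 in the vector control and 43.0 in the clone. Their 90th percentile over both arrays, 208, served as the floor. A gene under the floor on each of the arrays counts as not measured, and one under it on a single array has only a bound, written "at least". Each gene's ratio comes from its brightest probe set (by the mean of both arrays), and 2-fold in either direction was the size counted.

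Melanotransferrin was the check of the labels. Its probe set 220043_s_at read 18.4 in the vector control and 4449.4 in the clone, while of the other 3 probe sets of MELTF 1 read 245.8 and 209.3 and 2 were under the floor. Markers of the Ewing family were present, with 7 of 8 above the floor in the vector control and 8 of 8 in the clone. Of 10 fibroblast markers 9 were above it on each array. Few markers of sympathetic neurons and neural crest were, at 2 of 8 in the vector control and 1 of 8 in the clone. Spike controls did not settle the scale. All 18 hybridisation spike probe sets were lower on the clone array (median ratio 0.706) and all 24 poly-A spike probe sets higher (1.53). Setting the hybridisation spikes equal moves every log2 ratio by 0.50, the poly-A spikes by -0.61 and the array medians by 0.25. Directions below therefore hold relative to all genes on arrays of equal overall signal.

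Above background in the vector control were CDH6, CDH8 and CDH11, all of type II, and in the clone these and CDH3 and CDH5. Of the 8 genes with a probe set, 5 were above the floor on at least 1 array, beside 64.0% of all named genes, which is near the cadherins' share. In the vector control 0 of 3 type I genes and 3 of 5 type II genes were above it (CDH6, CDH8 and CDH11). In the clone the counts were 1 of 3 (CDH3) and 4 of 5 (CDH5 joining the others). CDH1, CDH2 and CDH10 were below it on both arrays.

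**Figure D1:**
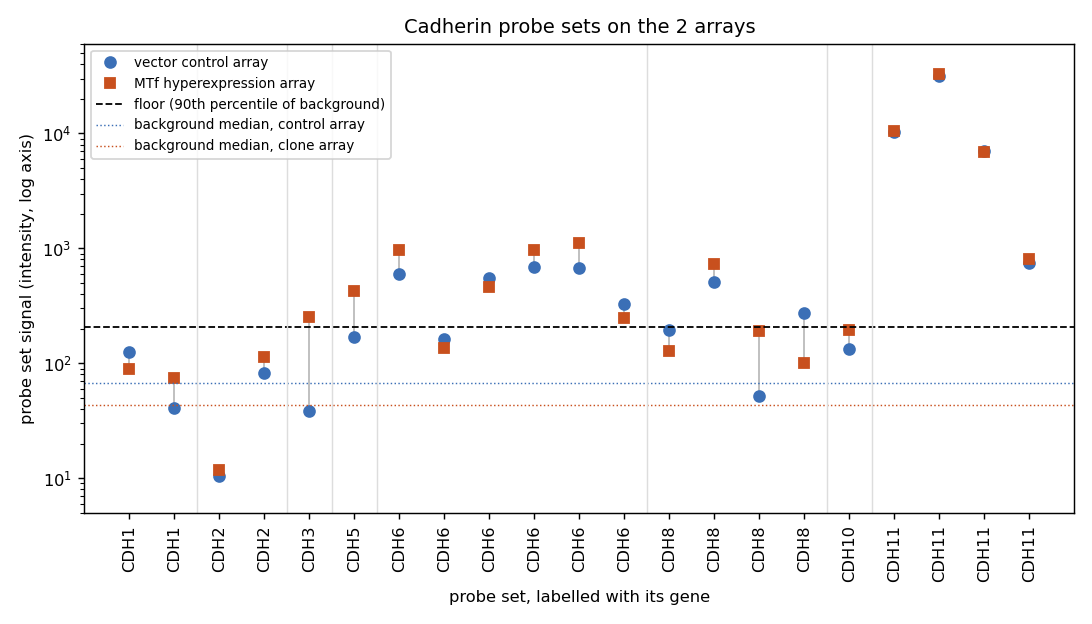
Signal of each of the 21 cadherin probe sets (log axis) on the vector control array (circles) and the MTf hyperexpression array (squares), with a line joining the pair. The dashed line is the floor of 208 and the dotted lines are the background medians of 67.4 and 43.0. The pairs for CDH11 coincide, those of CDH3 and CDH5 cross the floor upwards, and 1 of CDH8 crosses it downwards. Those of CDH1, CDH2 and CDH10 stay under it.

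E-cadherin, CDH1, the main adhesion molecule of epithelial cells, was at background. Its probe set 201130_s_at read 124.5 in the vector control and 90 in the clone, and 201131_s_at read 40.7 and 74.6. Of the 189 background probe sets, 48 were as bright as the first in the vector control and 56 in the clone. The 2 probe sets thus gave no usable ratio, and their readings moved in opposite directions.

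N-cadherin, CDH2, which joins neurons and many mesenchymal cells, was at background too. Probe set 203440_at read 10.5 and 11.7, a level that 184 and 151 of the background probe sets reached or passed. The other, 203441_s_at, read 82.8 in the vector control and 114.3 in the clone. Neither array therefore showed E-cadherin or N-cadherin above the floor on any of their 4 probe sets. A signal below the floor does not show that a transcript is absent.

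P-cadherin, CDH3, a cadherin of basal epithelial cells, was above the floor in the clone only. Its single probe set, 203256_at, read 38.8 in the vector control and 251.1 in the clone. On the control array 121 background probe sets were at least as bright as it, and on the clone array 10. Against the floor the bound is at least 1.21-fold higher, which is short of 2-fold. With no floor and a pseudocount of 100 the log2 ratio was 1.34. The gene was not measured at all with the floor at the 95th percentile or at 2 times its level, and with the poly-A spikes set equal the bound was 0.

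VE-cadherin, CDH5, the junction cadherin of blood vessel endothelium, was the only measured cadherin counted as 2-fold apart. Its single probe set, 204677_at, read 169.2 in the vector control, which is under the floor, and 424.8 in the clone. In the clone it stood 2.04 times above the floor, so it was at least 2.04-fold higher; 4 background probe sets were as bright there, and 31 were in the control. The count for the cadherins was 1 of 5 at least 2-fold higher and 0 of 5 lower, beside 1.21% and 1.90% of all measured genes. Of the 442 genes above the floor on the clone array only, as CDH5 was, 33 (7.47%) had a bound of 2-fold or more. The call is close to its limit, since it held in 6 of 11 other settings. Those 6 include the median of a gene's probe sets and the omission of shared-sequence probe sets. Neither could alter the call, since CDH5 has a single probe set that neither changes. The log2 bound was 0.67 with the floor at the 95th percentile of background, 0.95 with a floor for each array and 0.42 with the poly-A spikes set equal.

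Few genes crossed the floor upwards. Of the 5 cadherins below the floor in the control, CDH3 and CDH5 were above it in the clone, beside 5.85% of all named genes that started below it. Over all genes 442 crossed upwards and 1426 downwards. Background probe sets were lower on the clone array in 68.3% of cases, with 4 of 189 crossing upwards and 14 downwards. None of the 189 was called 2-fold higher or lower. The floor was set from these same probe sets, so few of them could be called. These background counts are therefore no test of CDH3 or CDH5. Each of the 2 genes has only 1 probe set, so no second reading of either difference was available.

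Most markers of endothelium and epithelium stayed under the floor. Of 10 endothelial markers 4 were above the floor on each array, with summed signals of 3178.3 in the vector control and 2546.1 in the clone. VWF, KDR, TEK, TIE1 and CLDN5, which define endothelium, were below it on both arrays, although none read 0. The 4 above it were PECAM1 (435.7 in the vector control, 235.0 in the clone), EMCN (930.4 and 597.6), ROBO4 (241.0 and 217.6) and EGFL7 (1154.8 and 1317.8). Among these EGFL7 alone read higher in the clone, as CDH5 did. PECAM1 was above the floor on both arrays on only 1 of its 5 probe sets and ROBO4, close to the floor, on 1 of 2. EMCN was on 3 of 3 and EGFL7 on 1 of 1. Of 12 epithelial markers 3 were above the floor in the vector control and 2 in the clone, with summed signals of 11435.5 and 11200.3. EPCAM, KRT5, KRT14 and KRT19 were below it on both arrays. KRT18, a keratin of simple epithelia, read 9759.9 and 10363.0, and its partner KRT8 read 509.9 and 245.6.

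Cadherin-6, CDH6, a type II cadherin of kidney and neural crest, had the most probe sets, and they disagreed. Probe set 214803_at, the brightest, read 679.2 in the vector control and 1102.9 in the clone, a 1.62-fold higher signal. Probe sets 205532_s_at (601.8 and 969.8) and 210602_s_at (681.6 and 964.6) were also higher, by log2 ratios of 0.69 and 0.50. These 3 were brighter in the clone by 1.42-fold to 1.62-fold.

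The other CDH6 probe sets above the floor were lower in the clone. Probe set 210601_at read 556.3 and 462.0, a log2 ratio of -0.27, and 232631_at read 329.1 and 247.2, a log2 ratio of -0.41. The sixth, 205533_s_at, was below the floor at 162.5 and 134.7. Probe sets 210601_at and 210602_s_at are annotated to the same cDNA record and still differed by 0.77 on the log2 scale. The widest gap among the 5, 1.11, does not depend on how the arrays are scaled, although the sign of each single ratio does. Their SD was 0.54, larger than in 90.04% of the 974 genes with at least 4 probe sets over the floor on both arrays, where the median SD was 0.29. Those genes were not matched for signal, and genes with dim probe sets spread more, as given below. Which CDH6 transcripts each probe set detects was not tested.

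Cadherin-8, CDH8, a type II cadherin of the developing brain, showed the same kind of disagreement. Its brightest probe set, 217574_at, read 505.6 in the vector control and 728.0 in the clone, which is 1.44-fold higher as scaled and a log2 ratio of -0.084 with the poly-A spikes set equal. Probe set 241500_at went the other way, from 272.8 to 99.7, at least 1.31-fold lower. The remaining pair, 210518_at and 231438_x_at, never reached the floor: the former read 196.3 and 128.4, the latter 51.8 and 190.2. With the median of its measured probe sets the gene's log2 value was 0.067, which rests in part on a bound.

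Promoter windows of 250 bases before to 50 after an annotated start were at hand for CDH2, CDH4, CDH8 and CDH10, in 7 entries (RefSeq, GRCh38.p14). CDH1, CDH3, CDH5, CDH6, CDH11 and CDH13 had no entry in the table used. The windows of CDH8, a cadherin measured here, and of CDH2, which was at background, are shown. Each of these genes has 2 annotated starts, as does CDH4, which had no probe set and whose windows are not shown. Capitals mark E-boxes, the letters CANNTG, which are read alike on both strands and are the class of site that SNAI, ZEB and TWIST factors bind.
CDH8, upstream start, chr16:62036389-62036688, minus strand: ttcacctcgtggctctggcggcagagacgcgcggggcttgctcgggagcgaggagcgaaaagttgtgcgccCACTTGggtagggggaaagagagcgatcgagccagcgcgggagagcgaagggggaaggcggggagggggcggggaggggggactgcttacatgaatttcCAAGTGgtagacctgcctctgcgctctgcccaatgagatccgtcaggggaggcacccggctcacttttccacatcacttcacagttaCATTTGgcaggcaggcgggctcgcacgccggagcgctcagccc
CDH8, downstream start, chr16:62035137-62035436, minus strand: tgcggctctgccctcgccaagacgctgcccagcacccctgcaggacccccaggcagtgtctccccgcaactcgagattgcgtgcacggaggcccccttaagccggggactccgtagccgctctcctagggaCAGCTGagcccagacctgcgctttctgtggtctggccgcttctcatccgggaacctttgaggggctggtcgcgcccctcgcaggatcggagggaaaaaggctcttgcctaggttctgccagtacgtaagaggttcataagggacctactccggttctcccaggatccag
CDH2, upstream start, chr18:28177081-28177380, minus strand: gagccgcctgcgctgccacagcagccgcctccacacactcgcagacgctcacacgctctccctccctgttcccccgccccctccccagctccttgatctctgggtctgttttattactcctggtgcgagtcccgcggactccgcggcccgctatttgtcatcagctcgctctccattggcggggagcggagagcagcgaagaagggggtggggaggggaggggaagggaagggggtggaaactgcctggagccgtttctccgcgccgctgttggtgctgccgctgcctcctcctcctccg
CDH2, downstream start, chr18:28036592-28036891, minus strand: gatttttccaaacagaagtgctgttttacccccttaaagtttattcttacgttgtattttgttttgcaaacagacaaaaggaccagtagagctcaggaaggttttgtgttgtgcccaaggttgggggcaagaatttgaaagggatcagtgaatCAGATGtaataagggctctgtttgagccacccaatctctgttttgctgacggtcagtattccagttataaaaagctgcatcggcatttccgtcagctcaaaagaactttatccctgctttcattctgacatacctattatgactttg
The upstream CDH8 window held 3 E-boxes and the downstream one 1, and the CDH2 windows held 0 and 1. E-boxes are common, in 68.7% of all 35116 windows of this length. The narrower form CACCTG (or CAGGTG on the other strand), best known from the CDH1 promoter, was in 20.6% of all windows in 0 of the 4 shown and in 1 of the 7 entries, at CDH4. The upstream CDH2 window is rich in G and C, at 67.0% with 23 CG pairs, whereas the downstream one has 40.7% with 4 and carries a TATAAA, found in 11.5% of windows (TTTATA on the other strand counted as well). GGAAGGAA (TTCCTTCC on the other strand), a pair of the GGAA repeats that EWSR1-FLI1 binds, was in 3.67% of windows and in none of the 7 cadherin entries. A match in these letters is not a binding site, and a missing match leaves the rest of the gene unread.

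Cadherin-10, CDH10, another type II cadherin of the brain, was just under the floor in the clone. Its probe set 220115_s_at read 133.5 in the vector control and 194.0 in the clone. On the clone array 15 of 189 background probe sets were as bright, and 44 on the control array.

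Cadherin-11, CDH11, the cadherin of osteoblasts and other mesenchymal cells, was far above background and nearly equal on both arrays. Probe set 207173_x_at read 31294.2 in the vector control and 33171.7 in the clone. Probe set 207172_s_at read 10206.0 and 10509.0, 236179_at read 6983.5 and 6834.1, and 239286_at read 749.1 and 814.6. Their log2 ratios ran from -0.031 to 0.12 as scaled, and no background probe set was as bright as the first 3 on either array.

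The 4 probe sets of CDH11 agreed closely. The SD of their log2 ratios was 0.065, and only 1.64% of the 974 genes with at least 4 such probe sets had a smaller one. Those genes were not matched for signal, and genes with bright probe sets spread less. The suffix of 207173_x_at marks probes that can pick up related transcripts. With such probe sets (and those shared between transcripts) left out, the brightest was 236179_at and the log2 ratio -0.031. The ratio was -0.53 with the poly-A spikes set equal and 0.59 with the hybridisation spikes.

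**Figure D2:**
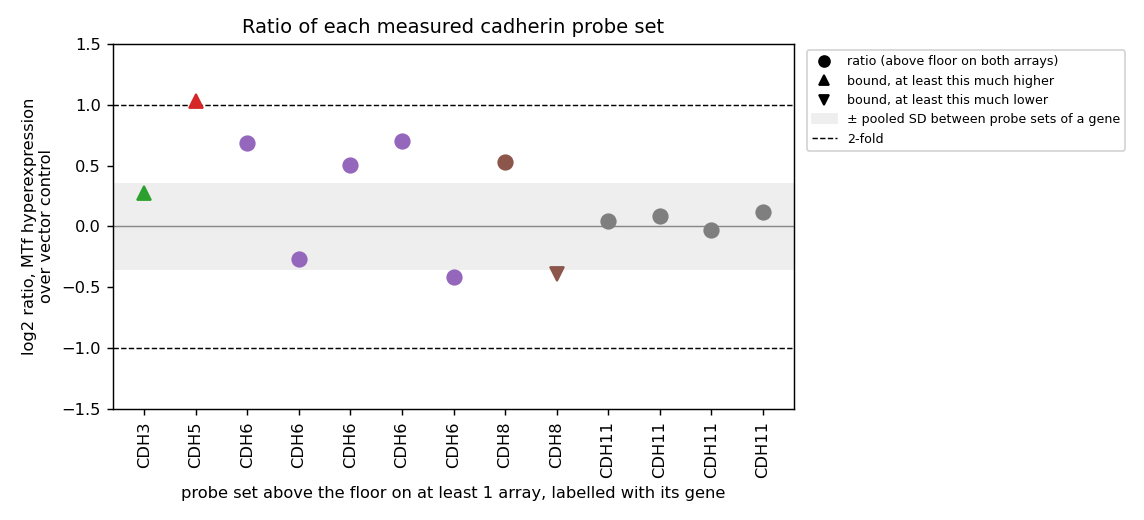
Log2 ratio of the clone over the control for the 13 cadherin probe sets above the floor on at least 1 array; circles are ratios and triangles are bounds against the floor. The grey band is ± 0.35, the pooled SD between probe sets of a gene, and dashed lines mark 2-fold. The 4 CDH11 probe sets lie near 0, CDH6 and CDH8 have probe sets on both sides, and the CDH5 bound is the only point past 2-fold.

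The spread between probe sets gives the only error for these ratios. The pooled SD of a gene's log2 ratios was 0.35 over 5387 genes with at least 2 probe sets over the floor on both arrays. It was 0.40 where the dimmest had a mean under 500, 0.32 at 500 to 2000 and 0.21 over 2000. The pooled SD of 0.35 leaves out differences between cultures and clones. For a difference between 2 probe sets this gives an SD of 0.49. CDH6 exceeded CDH11 by 0.62 on the brightest probe sets, but by 0.44 on the medians of their probe sets, and CDH8 exceeded CDH11 by 0.44. The differences between single probe sets, 0.62 and 0.44, lie on either side of that SD; it does not apply to the medians, which rest on more probe sets.

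Several of the cadherins are neighbours on their chromosomes. CDH8, CDH11 and CDH5 follow one another on chromosome 16 with 0 protein-coding genes between, as do CDH3 and CDH1. In the first group the log2 values as scaled were 0.53 for CDH8, 0.084 for CDH11 and a bound of 1.03 for CDH5. In the second CDH3 has a bound of 0.27 and CDH1 has no ratio. The 466 genes of chromosome 16 above the floor on both arrays had a median log2 ratio of -0.026, and the 485 of chromosome 5, which carries CDH6 and CDH10, of 0.0052, beside 0.0089 over all such genes. The 5 measured cadherins had a median log2 ratio of 0.53 as scaled, beside -0.022 for all 12663 measured genes. CDH3 and CDH5 were measured only through the clone array and could not lie below 0, so this median describes these readings and supports no direction; it was 1.03 with the hybridisation spikes set equal and 0 with the poly-A spikes.

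Most catenins, the proteins that join cadherin tails to actin, were above the floor on both arrays. Of 19 catenins and junction adaptors 18 had a probe set and 15 were above the floor on both arrays. None was 2-fold apart, beside 1.21% of all measured genes higher and 1.90% lower, a count too small to read against these shares. Their median log2 ratio was 0.029. CTNNB1, beta-catenin, read 4711.4 in the vector control and 4806.3 in the clone on its brightest probe set, while a dimmer one read 506.8 and 303.7.

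Alpha-catenin, CTNNA1, was lower in the clone on 5 of 5 probe sets as scaled, with log2 ratios from -0.71 to -0.18 and 13934.5 and 11461.0 on the brightest. These ratios would pass 0 for some of the probe sets with the array medians or hybridisation spikes set equal, which moves all ratios up by 0.25 or 0.50. Gamma-catenin, JUP, read 2311.8 and 1627.7, a log2 ratio of -0.51. The neural delta-catenin CTNND2 was higher as scaled on both its probe sets above the floor, at 1964.0 and 2725.7 and at 600.7 and 1140.6; the first, with a log2 ratio of 0.47, would turn with the poly-A spikes set equal. CTNNAL1, an alpha-catenin-like protein of chromosome 9, had the largest difference in the list, 4384.3 and 8530.8, 1.95-fold higher. CTNNA2 and CTNNA3, alpha-catenins of brain and of heart and testis, were below the floor on both arrays. CTNND1, p120 catenin, is not analysed here.

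Several, but not all, transcription factors known to repress CDH1 were above the floor on both arrays. Of 12 factors that act on cadherin genes 7 were above the floor on both arrays, and none was 2-fold apart on its brightest probe set, beside the same shares of all genes (median log2 ratio 0.086). TWIST1 read 20938.9 in the vector control and 15265.6 in the clone, ZEB2 read 2281.9 and 2431.5, ZEB1 read 1116.1 and 1165.5, SNAI2 read 708.9 and 953.6, and SNAI1 read 310.7 and 327.9. One dimmer ZEB1 probe set, 212758_s_at, went from 420.9 to 193.8, at least 2.02-fold lower, against a log2 ratio of 0.062 on the brightest. TCF3, an E protein that also represses CDH1, read 9676.6 and 10522.2 on its brightest probe set, but as scaled 7 of its 10 probe sets over the floor on both arrays were lower in the clone. The lowest of them, 202648_at, read 605.1 and 280.0, 2.16-fold lower. SNAI3, TWIST2 and FOXC2 were below the floor on both arrays, as were GRHL2 and KLF4, which favour the epithelial state.

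Genes that cut, mature or turn over cadherins were above the floor on at least 1 array, and 1 of them differed 2-fold. All 11 with a probe set were measured, with a median log2 ratio of -0.11; 1 was 2-fold higher and 0 were 2-fold lower, beside 1.21% and 1.90% of all measured genes. ADAM10, the sheddase of E- and N-cadherin, read 7938.9 in the vector control and 8146.7 in the clone, and its other 2 probe sets had log2 ratios of -0.42 and -0.28. PCSK5, a proprotein convertase of chromosome 9, read 359.6 and 770.3, 2.14-fold higher, and its second probe set above the floor read 212.8 and 581.5. MMP14, a membrane-bound metalloprotease, read 1080.3 and 571.5 on the brightest of its 4 probe sets, 1.89-fold lower. Probe set 217279_x_at read 326.8 and 55.4, at least 1.57-fold lower, while 202827_s_at and 202828_s_at were below the floor on both arrays. FURIN, the convertase best known for removing cadherin propeptides, read 357.8 and 319.2.

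**Figure D3:**
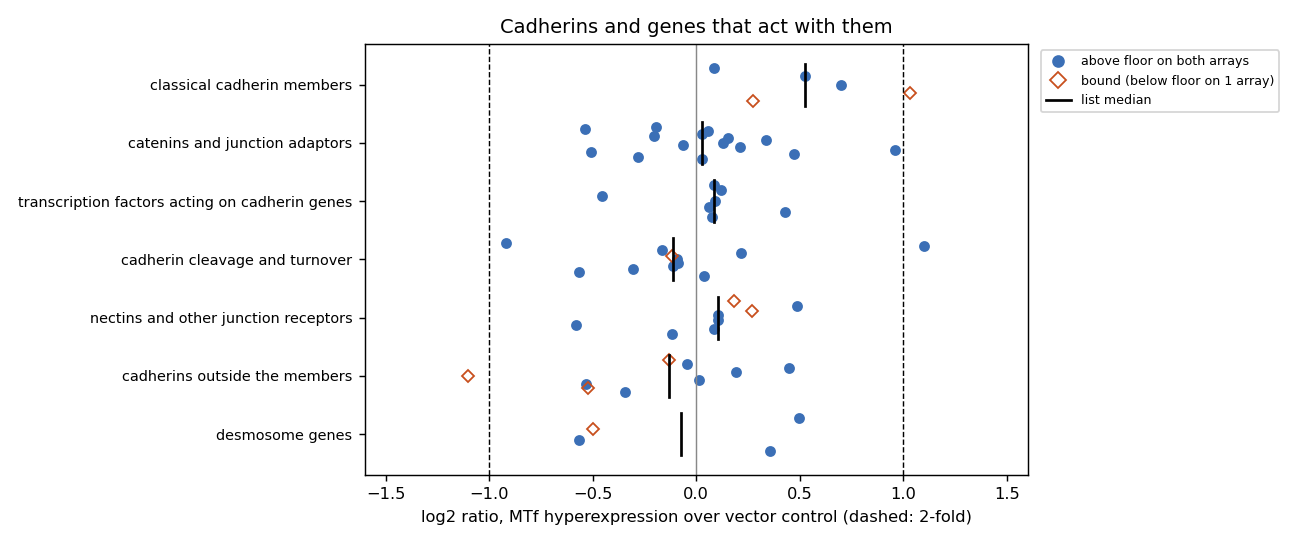
Log2 ratio of the clone over the control for each measured cadherin and each measured gene of the lists of genes that act with cadherins or belong to related families; filled circles were above the floor on both arrays, open diamonds are bounds, and black bars are list medians. The median of the cadherins is 0.53 and those of the other lists lie between -0.13 and 0.11. PCSK5 and CDH26 are the only genes of the other lists past 2-fold.

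**Figure D4:**
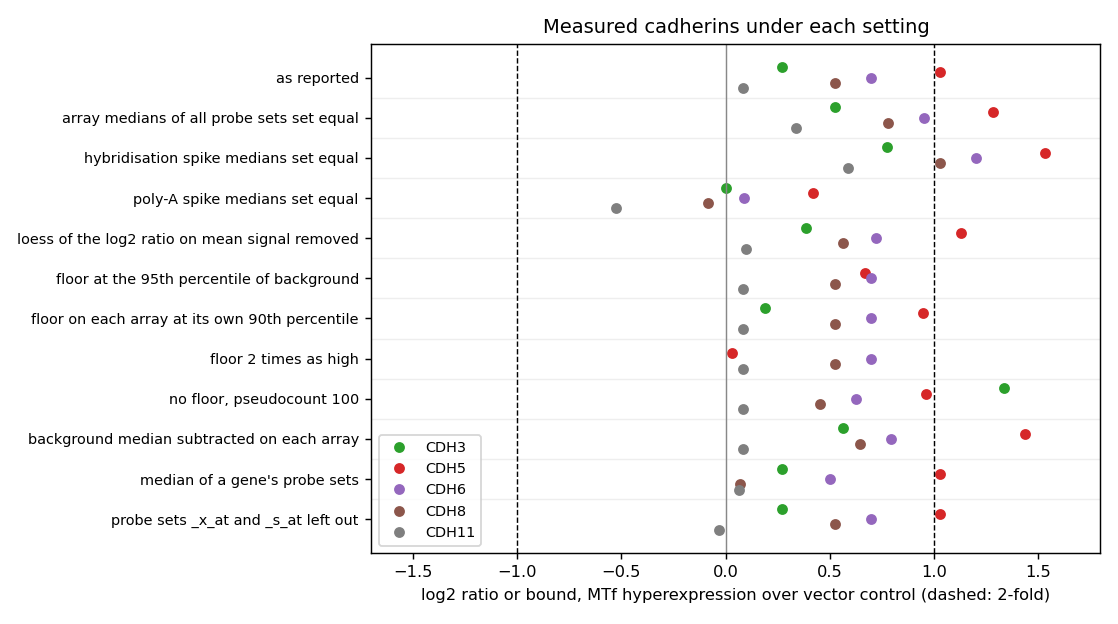
Log2 ratio or bound of the 5 measured cadherins as reported and under 11 other settings; a missing point means below the floor on both arrays. CDH5 is past 2-fold in 6 of the 11, CDH3, CDH6 and CDH8 in 1 each and CDH11 in none, and scaling to the spikes shifts all 5 together. The 6 include the settings on the choice of probe set, which could not change CDH5 with its single probe set.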

How the data were processed

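Both arrays were Affymetrix U133 Plus 2.0 arrays. The deposited values are linear intensity values, 1 per probe set, made with GCOS 1.3 per the submitters' processing notes; how probes were summarised and scaled was not given in the sources used here. Trimmed mean signal (2% dropped at each end) was 1000.12 on both arrays. Names came from the 2016 platform annotation (41097 with 1 symbol, 1801 with several, 11777 with none here), and symbols were updated by gene ID through RefSeq GRCh38.p14, which matched 41043. Ratios were taken on the log2 scale after raising signals to the floor. The scripts used Python 3.11.15, numpy 2.4.6, pandas 2.3.3 and statsmodels 0.14.6, and were tested on simulated data. Genes named were all 10 cadherins, fixed partners (catenins, repressors of CDH1, ADAM10, NCAM1), every listed gene 2-fold apart and the related cadherins and desmosome genes above the floor; other genes were picked after their values were seen. The cadherins and gene lists were chosen with earlier results of these data known. Precision is limited by there being 1 array per group.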

Additional observations from a re-analysis of the deposited data

How the results depend on the processing

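Scaling and the floor moved the counts; with the median of probe sets, with shared-sequence probe sets left out and with the loess, no count moved by over 1.5 times. As reported, 1 cadherin was 2-fold higher and 0 lower, 5 were measured, 1 gene of the partner lists was higher and 1 lower, and 153 of all measured genes were higher and 240 lower. With array medians set equal the partner lists gave 2 and 0 and all genes 372 and 76. With the hybridisation spikes set equal, 3 cadherins were higher, with a median log2 ratio of 1.03; the partner lists gave 2 and 0 with a median of 0.53, and all genes 976 and 32. With the poly-A spikes the cadherins gave 0 and a median of 0, the partner lists 0 and 12 with a median of -0.58, and all genes 13 and 2001. A floor at the 95th percentile left 0 cadherins higher, 0 partner genes lower and 121 of all genes lower. A floor for each array left 0 cadherins higher and 398 of all genes lower. A floor 2 times as high left 0 cadherins higher, 0 and 0 partner genes, and 71 and 47 of all genes. With no floor 8 cadherins had a value, the partner lists gave 0 and 5, and all genes 270 and 950. Subtracting the background medians gave 296 and 402 of all genes. The count of cadherins 2-fold lower was 0 in all 11 settings. CDH5 ran from 0.031 to 1.53 on the log2 scale, but with a floor its value was a bound that could not lie below 0. With no floor and a pseudocount of 100 it was 0.96. CDH6 stayed above 0 in all 11, from 0.089 to 1.20, but several of these could not turn its sign. Its brightest probe set passes every floor and has no shared-sequence suffix. The value was thus 0.70 as reported, with each other floor and with shared-sequence probe sets left out. The median setting, at 0.50, does not use the brightest probe set alone. Of the 5 CDH6 probe sets with a ratio, 3 were higher and 2 lower as scaled. The causes of these shifts were not tested beyond what each setting changes by construction.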

Other observations

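Most cadherins outside the group were at background, with 12 of 21 further cadherin family genes below the floor on both arrays. The other 9 were above it on at least 1 array, beside 64.0% of all named genes. Of the 6 above it on both arrays 3 were higher and 3 lower in the clone as scaled; the other 3 (CDH15, CDH26 and RET) were above it in the vector control only and so could only be lower. CDH12, a type II cadherin of brain, read 1083.5 in the vector control and 853.5 in the clone. CDH22 read 433.5 and 299.7, and CDH23, a cadherin of inner ear hair cells, read 654.3 and 660.8 with log2 ratios from -0.054 to 0.36 over 3 probe sets. CDH26 read 445.8 and 115.9, at least 2.14-fold lower, on the only one of its 4 probe sets above the floor. Of the 9 measured genes it was the 1 called lower and 0 were called higher. The shares of all measured genes were 1.90% and 1.21%, and a list of 9 is too small to read against them. CDH15, the cadherin of muscle, read 298.4 and 24.1, a bound of at least 1.44-fold lower. The calsyntenins CLSTN1, CLSTN2 and CLSTN3 read 2717.2 and 3099.7, 6065.0 and 8279.7, and 284.6 and 275.8. RET, a receptor kinase with cadherin-like repeats, read 227.5 and 130.6. Background probe sets were also lower on the clone array, and the part of this in the bounds for CDH26, CDH15 and RET was not tested.

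Desmosomal cadherins were not seen. All 7 desmocollin and desmoglein genes were below the floor on both arrays, while the plaque genes DSP (desmoplakin), at 2605.7 and 3337.8, and PKP2 (plakophilin 2), at 1865.7 and 1260.8, were above it. PKP3 read 294.3 and 138.4, and PERP, a desmosome membrane protein, read 631.7 and 890.0. Of 11 nectins and other junction receptors 8 were measured and 0 were 2-fold apart on the brightest probe set, beside 1.21% of all measured genes higher and 1.90% lower. PVR and JAM3 had log2 ratios of 0.11 and 0.10 on it, but as low as -1.17 and -1.03 on other probe sets. NCAM1, the neural cell adhesion molecule, crossed the floor on 1 of 7 probe sets, from 109.8 to 250.2, with the other 6 below it on both arrays. CADM1 did so on 1 of 6, from 85.9 to 235.9.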
